A study of Macaca mulatta with 4 samples.

Results

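The nuclei described here are granule cell nuclei of the fetal rhesus cerebellum that carried RNA of RASGEF1B, FSTL4, HUNK, EBF3 and ARSF, a set called list B below. They were chosen from every barcode with at least 500 detected genes in 4 snRNA-seq libraries, 32587 barcodes in all. A barcode was eligible if it had no UMI of SLC1A3 (glia), GAD2 (inhibitory neurons), MKI67 or TOP2A (dividing cells), which left 16638. An eligible barcode became a list B nucleus if it held UMIs of at least 2 of the 5 genes and of more list B genes than of any of 5 other lists of the same size, called A, C, D, E and F. The rule gave 4309 list B nuclei, 25.9% of the eligible barcodes. The gene lists were made by the study from clusters of these same nuclei, so the levels of these 5 genes, and the differences in level between list B nuclei and the other lists, are given as description without a test.

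Nuclei came from frozen cerebellar hemispheres, with one side of the vermis, of 4 Macaca mulatta fetuses, 1 library per fetus. The 2 control fetuses, a female and a male, had no intervention and were taken at 130 days of gestation. In the other 2 pregnancies 1 mg of lipopolysaccharide (LPS) from E. coli was injected into the amniotic fluid as a model of chorioamnionitis, and the female was taken at 131 and the male at 133 days. LPS fetuses were thus older than controls, and age and exposure cannot be told apart. Each group held 2 fetuses, and the nuclei of 1 fetus share their source and are not replicates.

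Granule cells are the small glutamatergic neurons of the cerebellum and its most numerous cells. Their precursors divide in the external granule layer under Sonic hedgehog from Purkinje cells, leave the cycle, extend axons and then move inward along Bergmann glia to the internal granule layer. Cells that have left the cycle are known for adhesion molecules such as CNTN2 (TAG-1), for doublecortin and for transcription factors such as NEUROD1. EBF3 belongs to the EBF family of helix-loop-helix transcription factors. RASGEF1B is a guanine nucleotide exchange factor, FSTL4 a follistatin-like protein, HUNK a protein kinase and ARSF an arylsulfatase.

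The libraries held 34282015 to 61665690 UMIs, and 16 to 22 of the barcodes with at least 500 genes were shared by each pair of libraries. The median number of UMIs in list B nuclei was 3682 in the control female, 1660.5 in the control male, 3434.5 in the LPS female and 2073.5 in the LPS male. Both female libraries were therefore deeper per nucleus than both male libraries. The LPS male stood apart in that 38.7% of its UMIs lay in barcodes with at least 500 genes, against 58.7 to 74.1% in the others. Scrublet marked 25, 87, 26 and 26 of the list B nuclei as doublets in the control female, control male, LPS female and LPS male, the order kept below where 4 values are given, and no list B nucleus had more than 5% mitochondrial UMIs.

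Most list B nuclei met the rule with more than the minimum of 2 genes. Of the 4309, 954 held 2 of the 5 genes, 1539 held 3, 1311 held 4 and 505 held all 5. The share with only 2 was higher in the shallower male libraries (28.6 and 38.6%) than in the female libraries (11.8 and 12.7%). Just outside the rule, 5161 eligible barcodes held 1 list B gene, 926 held 2 or more but tied with another list, and 1124 held 2 or more but had more genes of another list. Just inside it, 1310 nuclei led by a single gene.

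RASGEF1B had 3181, 1477, 2807 and 1720 CPM (UMIs of the gene per 1000000 UMIs, both summed over the list B nuclei of a library). It was detected in 95.6, 78.9, 96.2 and 88.3% of list B nuclei. Both its level and its detection were lower in the male than in the female libraries. FSTL4 had 2763, 3184, 1851 and 3050 CPM and was lowest in the LPS female. HUNK had 243, 282, 222 and 212 CPM, with the 4 libraries close together. ARSF had 144, 138, 201 and 138 CPM and was highest in the LPS female.

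EBF3 was the most uneven of the 5 genes between the male libraries. It had 648 and 702 CPM in the control and LPS females, 1445 in the control male and 612 in the LPS male. It was detected in 84.8, 83.2, 85.5 and 58.1% of list B nuclei.

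Free RNA also places UMIs in nuclei that do not make a transcript. Barcodes with UMIs of at least 3 astroglial markers and at least 3 UMIs of SLC1A3, which should lack these genes, gave the background. There were 215, 19, 76 and 53 of them, with 3491 to 6923 median UMIs. List B nuclei were chosen by UMIs of these genes, so a higher detection in them is fixed by the rule and is given as description. RASGEF1B was detected in 25.1, 36.8, 18.4 and 18.9% of the astroglial barcodes and EBF3 in 10.7, 26.3, 10.5 and 9.4%. HUNK was detected in 47.9, 33.5, 45.9 and 31.8% of list B nuclei and in 20.5, 31.6, 21.1 and 22.6% of the astroglial barcodes. ARSF was detected in 20.6% of list B nuclei of the control male and in 21.1% of its 19 astroglial barcodes, too few and too deep for a close comparison, while its level there was 138 CPM in list B nuclei, 39.6 CPM in free RNA and 14.4 CPM in list A and C nuclei. The astroglial barcodes were deeper than the list B nuclei in every library.

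**Figure D1:**
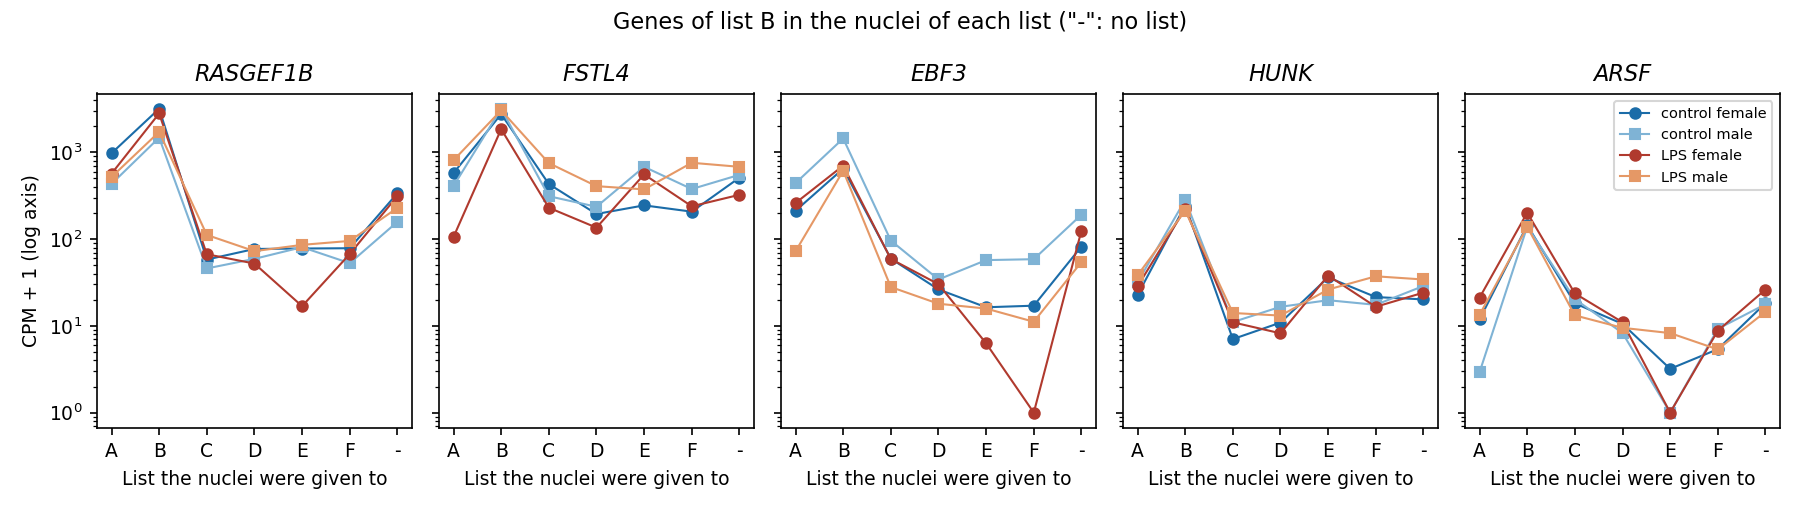
Levels of the 5 list B genes (CPM + 1, log axis) in the nuclei given to each list and in eligible nuclei given to none, 1 line per library. All 5 genes peak in list B nuclei, which the rule fixes, and RASGEF1B and EBF3 come next in list A nuclei in all 4 libraries.

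Outside list B, the same genes were not spread evenly. RASGEF1B had 975, 431, 567 and 518 CPM in list A nuclei (COL21A1, HSD11B2, COMP, ROR1, BTBD11) but 57.1, 44.9, 65.9 and 111 CPM in list C nuclei (CHRM3, CLSTN2, CDH6, NTF3, CHST9). EBF3 had 211, 441, 259.6 and 71.4 CPM in list A nuclei and 58.5, 95.2, 57.9 and 27.0 CPM in list C nuclei. For both genes the lists followed the order B, A, C in every library, as the plot of the 5 genes across lists shows. HUNK was at 21.7 to 37.2 CPM in list A and at 6.0 to 13.1 CPM in list C nuclei. EBF1, a relative of EBF3, had 3638, 2112, 3506 and 2416 CPM in list B nuclei and 3440, 2018, 3008 and 2603 CPM in list A nuclei, with no constant order between them, but 1497 to 2213 CPM in list C nuclei. EBF2 and EBF4 lay at 3.59 to 18.8 and 2.99 to 25.7 CPM in list B nuclei.

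The granule cell label was checked on markers of the lineage that the rule did not use. RBFOX3 (NeuN) was detected in 96.7, 93.7, 94.6 and 83.6% of list B nuclei, PAX6 in 64.2, 63.9, 63.6 and 60.5%, and RELN in 73.2, 65.1, 70.6 and 80.9%. ZIC1 was detected in 31.2 to 66.1% and NEUROD1 in 23.3 to 71.7%, in both cases least in the control male, the shallowest library. ZIC2 was detected in 1.5 to 2.7%. In the astroglial barcodes, which were deeper, RBFOX3 was found in 33.0, 42.1, 30.3 and 58.5% and NEUROD1 in 37.7, 10.5, 35.5 and 22.6%, under the list B nuclei in every library. RELN was found in 47.4 to 67.9% and ZIC1 in 26.3 to 53.9% of them, also under list B nuclei of the same library, but free RNA held as much RELN (1101 to 1581 CPM) as list B nuclei did (1273 to 1494 CPM). PAX6 was found in 34.2 to 71.7%, above list B nuclei in both males, so its detection does not set these nuclei apart. No position in the tissue was measured, so whether the nuclei were migrating was not tested.

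Most markers of other cells were each rare in list B nuclei, but most nuclei of every library had a UMI of at least 1 of them. Nuclei with no UMI of any such marker numbered 33 of 1157, 352 of 1556, 14 of 938 and 65 of 658. All 5 fibroblast markers were found in at most 3.6% of nuclei, the 4 microglial markers measured in at most 2.4%, the 4 pericyte and smooth muscle markers in at most 2.9% and the 4 endothelial markers in at most 2.6%, with CLDN5 at 0 UMIs in all libraries. Inhibitory interneuron markers were found in at most 5.6% (GAD1) and the 5 astroglial markers in at most 14.0% (SLC1A2). Exceptions were FOXP2 of the Purkinje list (38.3 to 81.6%), PDGFRA (24.3 to 66.8%) and MBP (19.1 to 44.0%) of the oligodendrocyte list and MEIS2 of the cerebellar nuclei list (16.0 to 26.0%). In astroglial barcodes, which were deeper, PDGFRA was found in 52.8 to 84.2%, more than in list B nuclei in every library. The source of the PDGFRA UMIs in list B nuclei was not tested. MBP was found there in 24.7, 26.3, 13.2 and 26.4%, more than in the 19.1% of list B nuclei of the control male. FOXP2 was found there in 22.4 to 28.3% and MEIS2 in 7.0 to 18.9%, under list B nuclei in every library. The other Purkinje markers CA8, CALB1, PCP2, PPP1R17 and SKOR2 were found in at most 8.8% and ITPR1 in 5.3 to 16.3%, OLIG2 in at most 1.8%, and LHX2, LHX9 and TBR1 in at most 0.5%. TTR, the main secreted product of choroid plexus, was found in 65.7% of list B nuclei of the LPS female and in 0.1 to 3.2% of those of the other libraries. In barcodes with at most 100 UMIs, which hold free RNA, TTR had 2830 CPM in the LPS female and 134, 0 and 5.94 CPM in the control female, control male and LPS male.

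To see which other genes set list B nuclei apart from those of lists A and C, their CPM were divided by those of the pooled list A and list C nuclei. The pool was of the same library, and the pseudocount was 1 CPM. It held 187, 277, 295 and 133 list A nuclei and 498, 682, 386 and 402 list C nuclei. List C thus outweighed list A, and the mix differed between libraries. A ratio to the pool alone does not show whether list B nuclei also differed from list A nuclei. The comparison covered 5954 genes that reached 20 CPM in every library, either in list B nuclei or in the pool. The ratio was at least 2-fold above 1 in all 4 libraries for 52 genes (0.873%) and at least 2-fold below 1 in all 4 for 84 (1.41%). Without a size limit, 1505 genes (25.3%) were higher and 1454 (24.4%) lower in all 4 libraries, and the median log2 ratio of all genes was 0.00454.

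The 20 genes of the most constant excess included 2 known only by an Ensembl identifier. KCNQ3, a subunit of the M-type potassium channel, had 641, 1023, 795 and 842 CPM in list B nuclei and 116, 259.5, 127 and 219 CPM in the A and C pool. Its mean log2 ratio was 2.25 ± 0.35 (SD, n = 4 libraries). TLE1, a Groucho corepressor, had 195, 161, 199.7 and 163 CPM in list B nuclei and 23.6 to 49.0 CPM in the pool, a log2 ratio of 2.28 ± 0.54. NXN, a thioredoxin-like oxidoreductase, had 319, 1144, 515 and 844 CPM against 82.6, 247, 102 and 189 CPM, a log2 ratio of 2.15 ± 0.16. For all 3 genes list B nuclei exceeded the pool in every library by more than the libraries differed in that ratio. The 20 genes were chosen by the lowest of their 4 library ratios, so a constant excess follows from the choice.

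Of the other genes of the 20, CORO2A, a coronin, had a log2 ratio of 2.51 ± 0.55 and AFAP1, an actin filament associated protein, of 1.82 ± 0.18. AFAP1 had 500.4, 702, 583 and 713 CPM in list B nuclei against 120.5, 213, 186 and 195 CPM. FRMD4A, a scaffold of the PAR polarity complex, had 3656, 3690.5, 3173 and 3557 CPM against 782, 949.8, 1224 and 1106 CPM, a log2 ratio of 1.81 ± 0.36. STMN4, a microtubule-destabilising stathmin, had a log2 ratio of 1.68 ± 0.14 and KIF19, a kinesin, of 2.03 ± 0.29. Further genes with a symbol were TSPAN11 (2.42), TMEM44 (2.30), EYA2 (2.16), ATCAY (2.03), PRAG1 (2.01), SH2D3C (1.87), PDE4A (1.55) and PHF20L1 (1.45, mean log2 ratios). Against the pool of lists A, C, D, E and F, the lowest log2 ratio of a library was 0.55 for TSPAN11, 0.87 for CORO2A and 0.87 for PRAG1. The others of the 20 with a symbol stayed at 1.04 (PDE4A) or above. CORO2A, TMEM44, KIF19, TSPAN11, EYA2, SH2D3C, PRAG1 and NHLH1 lay under 100 CPM in list B nuclei of every library.

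CNTN2, the adhesion molecule of axon-bearing granule cells, and NHLH1, a helix-loop-helix factor of postmitotic neurons, also belonged to the 20. CNTN2 had 335, 398, 443 and 346 CPM in list B nuclei, with 113 to 179.9 CPM in list A and 108 to 127 CPM in list C nuclei. The log2 ratio to the pool was 1.58 ± 0.12. CNTN2 was found in 60.4, 44.1, 70.1 and 41.5% of list B nuclei and in 13.2 to 31.6% of astroglial barcodes. NHLH1 had 64.2, 28, 70.5 and 31.3 CPM in list B nuclei and 0.9 to 29.7 CPM in list A or C nuclei, a log2 ratio of 1.96 ± 0.49, and its level in list B nuclei was lower in both males. Both genes were higher in list B than in list A, C, D, E and F nuclei in all 4 libraries.

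**Figure D2:**
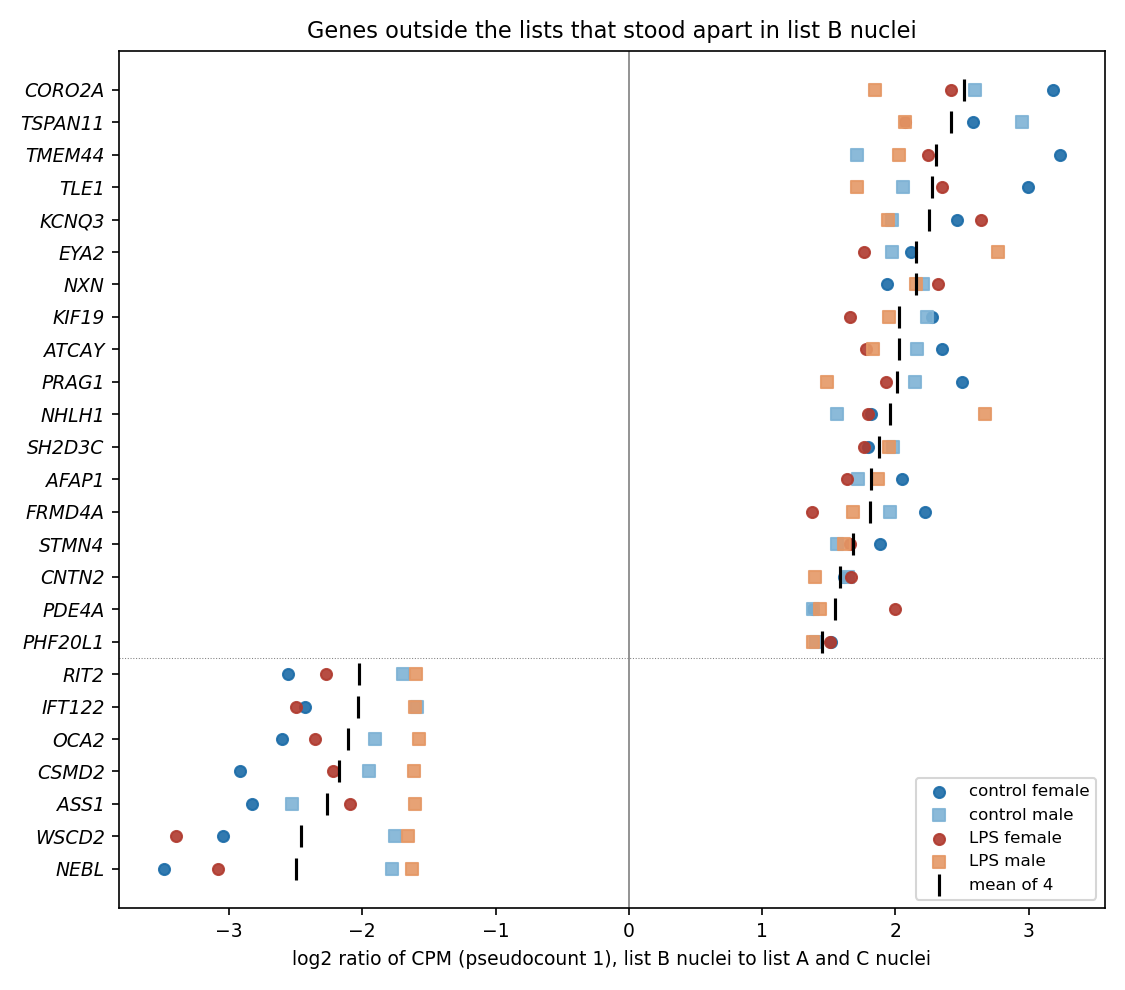
Log2 ratios of CPM between list B nuclei and the pooled list A and C nuclei for the genes of most constant excess and deficit that have a symbol, 1 point per library and a bar at the mean of 4. PHF20L1, SH2D3C and CNTN2 vary least between libraries, and the genes of deficit have more negative ratios in both female libraries, apart from ASS1.

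Of the 26 transcription factors of the granule lineage, 19 were compared and 11 were higher and 3 lower in all 4 libraries, against the 25.3 and 24.4% of all genes. Their median log2 ratio was 0.31. NHLH2 had a mean log2 ratio of 1.13, KLF7 of 1.31, NEUROD1 of 0.86, NFIB of 0.79, TCF4 of 0.68 and NFIA of 0.67. NFIA, a factor of granule cell differentiation, had 4923, 3588, 4976 and 3270.2 CPM. ZIC4 (-0.55), ZIC1 (-0.16) and ETV1 (-0.75) were lower in all 4 libraries. ATOH1, the factor of dividing precursors, was at 0 to 0.90 CPM.

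Of 25 genes of the migration machinery 20 were compared, 13 were higher and 4 lower in all 4 libraries against 25.3 and 24.4% of all genes, and the median log2 ratio was 0.34. KALRN, a guanine nucleotide exchange factor that shapes axons and spines, had a mean log2 ratio of 1.64. It had 1134, 773, 856 and 752 CPM in list B nuclei, close above the 885, 728, 798 and 586 CPM of list A nuclei, while list C nuclei had 60.8 to 127 CPM. Tubulin TUBB3 had a log2 ratio to the pool of 1.06, MAP1B of 0.99, STMN2 of 0.85, DCX (doublecortin) of 0.78 and DCLK1 of 0.47. List A nuclei are not given apart for these genes. DCX had 241, 159, 244 and 180.4 CPM.

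ASTN2, an astrotactin that binds ASTN1 at the contact of migrating granule cells with glia, went the other way. It had 181, 401, 169 and 730.5 CPM in list B nuclei, 79.5 to 593 CPM in list A nuclei and 1776 to 1970 CPM in list C nuclei, with a log2 ratio to the pool of -2.19. The females lay far below the males in both list A and list B nuclei, and the LPS male was highest in both. ASTN1 had a log2 ratio of -0.43 and 328 to 515 CPM in list B nuclei.

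Of 32 adhesion and guidance genes 24 were compared, 11 were higher and 8 lower in all 4 libraries, again against 25.3 and 24.4% of all genes, and the median log2 ratio was 0.11. CNTN2 was the only one past 2-fold in all 4. NRCAM, a partner of CNTN2, had a log2 ratio of 1.04, JAM3 of 0.90, UNC5C, a netrin receptor, of 0.68, SEMA6D of 0.59 and ROBO2 of 0.38. TENM2 (-1.64), UNC5D (-1.24) and ROBO1 (-0.76) were lower in all 4 libraries. The netrin receptor DCC, a marker of early granule cells in the study, had 795, 584, 777 and 534 CPM in list B nuclei. It had 3541, 1766, 3481 and 2144 CPM in list A and 90.6 to 227 CPM in list C nuclei, so list B lay between them in every library. HES6 (516, 267, 616 and 264 CPM) and FOXP2 (999.5, 377, 857 and 514 CPM) lay in the same order, A above B above C, in all 4 libraries. The study lists DCX and ATXN1 for migrating, CNTN2 for maturing and RBFOX3 for mature granule cells. Of its 8 stage markers 6 were compared, 4 were higher and 1 lower in all 4 libraries, beside the same shares of all genes. Levels of ATXN1 are not given here, and these counts alone do not place list B nuclei at any of the stages.

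**Figure D3:**
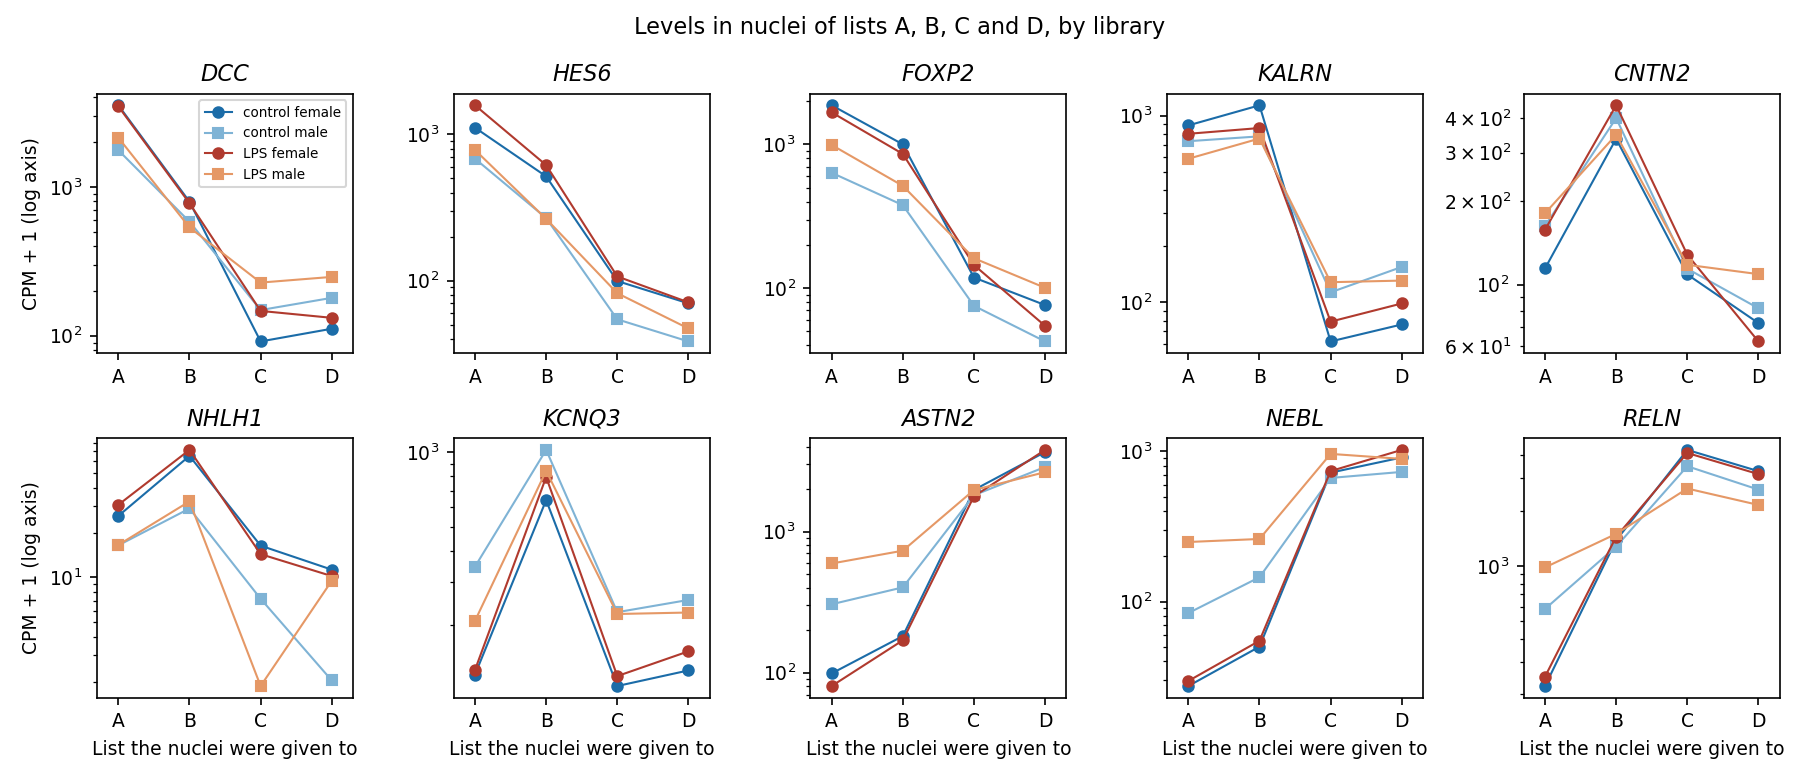
Levels (CPM + 1, log axis) of 10 genes in the nuclei of lists A, B, C and D, 1 line per library. DCC, HES6 and FOXP2 step down from A through B to C, CNTN2, NHLH1 and KCNQ3 peak in B, KALRN is high in A and B, and ASTN2, NEBL and RELN are low in A and B or lowest in A and highest in C or D.

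The 10 genes of the most constant deficit included 3 known only by an identifier. NEBL, an actin-binding nebulin relative, had 49.1, 144, 53.8 and 260.0 CPM in list B nuclei and 561, 498, 464 and 805 CPM in the pool, a log2 ratio of -2.49 ± 0.93. Its ratios were lower in both females (-3.49 and -3.09) than in both males (-1.78 and -1.63). CSMD2 had a log2 ratio of -2.17 ± 0.55, with 102, 229.7, 128 and 436 CPM against 772, 890.2, 599 and 1336 CPM. WSCD2 (-2.46), ASS1 (argininosuccinate synthase, -2.26), OCA2 (-2.11), IFT122 (-2.03) and RIT2 (-2.03) were the others with a symbol. RELN, which granule cells secrete, had 1378, 1273, 1441 and 1494 CPM in list B nuclei, above the 220.4 to 980.4 CPM of list A and below the 2640 to 4289 CPM of list C nuclei, in every library.

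Of 31 synaptic and mature granule genes 21 were compared, 4 were higher and 10 lower in all 4 libraries, and the median log2 ratio was -0.32. Of all genes 25.3% were higher and 24.4% lower, so the share of higher genes lay near that of all genes. The higher genes included KCNQ3 and both vesicular glutamate transporters, SLC17A7 (1.47) and SLC17A6 (1.36). SLC17A7 had 80.5, 118, 65.2 and 97.7 CPM in list B nuclei. The lower genes included CHN2 (-1.66), GRIN1, the obligate NMDA receptor subunit (-1.27), CAMK4 (-1.0), GRIN2B (-0.81) and KCND2 (-0.75). The GABA receptor gene GABRA6 of mature granule cells was at 0.67 to 10.0 CPM. GABRB2, a gene of list E, had 71.5, 44.6, 94.5 and 105 CPM in list B nuclei.

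The counts of the next lists are small and are read beside the 25.3% of all genes that were higher and the 24.4% that were lower in all 4 libraries. Among the relatives of the list B genes, 9 of 21 RAS and RAP exchange factors and partners were compared, 4 were higher and 3 lower in all 4 libraries, and the median log2 ratio was 0.17. RAPGEF4 was at 0.80 and RAPGEF2 at 0.40. RASGEF1A and RASGEF1C had 0.90 to 8.77 and 7.24 to 50.1 CPM. Among 10 genes related to FSTL4, 4 were compared: SPOCK1, a secreted proteoglycan, had a log2 ratio of 1.52 and was higher in all 4 libraries, whereas FSTL5 (-1.32) and SPOCK2 (-0.54) were lower in all 4. Of 14 hedgehog pathway and precursor genes 8 were compared, 1 was higher (GLI3, 0.76) and 2 lower in all 4 libraries, with a median of -0.21, and CCND1 and GLI1 lay at 1.88 to 7.99 and 0 to 1.00 CPM. Of 32 inflammatory and stress genes 10 were compared, 4 were higher and 4 lower, and the glucocorticoid receptor NR3C1 was lowest at -1.46.

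The share of list B nuclei among the eligible barcodes, which the rule does not limit to granule cells, was compared between LPS and control. Eligible were 38.4, 62.9, 43.7 and 59.5% of the barcodes with at least 500 genes, less in both female libraries. SLC1A3, which excludes a barcode, was found in 50.8, 27.4, 44.1 and 31.2% of them. List B nuclei made up 32.5% of the eligible barcodes in the control female (exact Clopper-Pearson 95% interval 31.0 to 34.1%) and 28.7% (27.5 to 29.9%) in the control male. They made up 31.1% (29.5 to 32.8%) in the LPS female and 14.2% (13.2 to 15.2%) in the LPS male. The LPS female lay between the controls and the LPS male lay far below both, so that the groups overlapped. The means were 30.6 ± 2.72% in controls and 22.6 ± 12% after LPS (SD, n = 2), and the two-sided exact permutation test gave p = 0.667, where 0.333 is the smallest p this design allows. In edgeR's quasi-likelihood test the log2 fold change was -0.44 (SE 0.92), with a Benjamini-Hochberg adjusted p of 0.944 over 7 classes. Intervals cover counting error only.

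The value rested on the LPS male. Without it the log2 fold change was 0.023, and without the LPS female it was -1.11. In the LPS male, list E nuclei numbered 934 against 41 to 95 in the other libraries. With lists A to D and F as the denominator, an alternative chosen after the data were seen, the log2 fold change was -0.23. Thinned to 1000 UMIs per barcode, with eligibility decided again on the thinned counts, the shares were 25.3, 24.8, 23.2 and 14.6%. Eligible barcodes then numbered 6281, 5778, 4872 and 4594, against 3557, 5424, 3016 and 4641 from all UMIs. Barcodes under 1000 UMIs, 389, 780, 165 and 1788 of them, were left out. With eligibility kept from all UMIs, an alternative chosen after the data were seen, the shares were 29.8, 25.3, 26.1 and 14.2%. The LPS male was the lowest both ways. The part of list E, of depth or of the low share of UMIs in nuclei in this library was not tested. The list genes choose the members and were picked by the study on these samples, so the share is not independent of their levels after LPS.

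**Figure D4:**
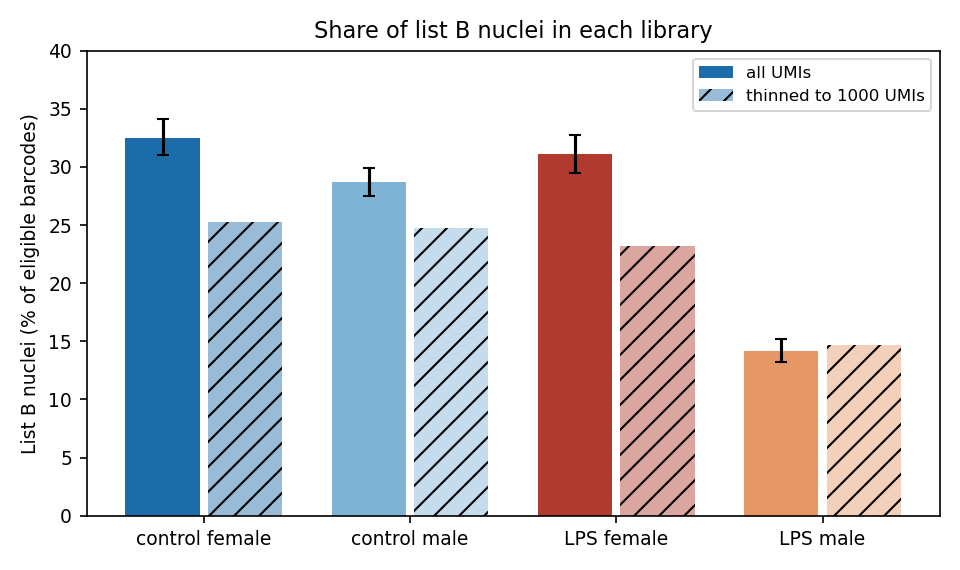
Share of list B nuclei among eligible barcodes (%) in each library from all UMIs (solid bars, exact 95% intervals) and after thinning each barcode to 1000 UMIs (hatched). For the hatched bars eligibility was decided again on the thinned counts. From all UMIs, 3 libraries lie at 28.7 to 32.5% and the LPS male at 14.2%.

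Within list B nuclei, UMIs were summed per fetus and 11689 genes outside the lists were compared between LPS and control. With calls made at an adjusted p below 0.1 and a log2 fold change beyond 0.25 in either direction, edgeR's quasi-likelihood test called none (0%), and DESeq2 called none. Without the filter on low counts 4 of 19014 genes (0.021%) were called, and with the sex of the fetus as a block 1 gene (0.00856%). At an unadjusted p under 0.05 there were 26 genes in edgeR, 496 in edgeR with sex as a block and 34 in DESeq2. Both LPS values lay above both controls for 835 genes (7.14%) and below both for 1009 (8.63%). The same libraries split by sex for 7846 genes (67.1%), and since both females were also the deeper libraries, sex and depth cannot be told apart. The main test had no term for sex, so this split counted as spread within each group. In simulated data the main edgeR test of LPS recovered 0, 30.8 and 91.0% of genes changed by 1, 2 and 4 on the log2 scale. All genes named next had an adjusted p of 1.00 in edgeR and were taken by rank of the unadjusted p.

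Among the genes with both LPS values above both controls, RUNX1T1, a transcriptional corepressor, had 73.3 and 70.2 CPM in the control female and male and 221 and 139 CPM in the LPS female and male. Its log2 fold change was 1.37 (SE 0.36). In free RNA, taken from barcodes with at most 100 UMIs, RUNX1T1 had 92.3, 132, 135 and 288 CPM, also higher after LPS within each sex. RUNX1T1 showed a similar spread in list A and C nuclei, with 70.1 and 99.4 CPM in controls and 249 and 144 CPM after LPS. PLCL1, a phospholipase C-like protein without catalytic activity, had 20.4, 24.3, 44.5 and 299 CPM. Its log2 fold change of 2.94 (SE 0.88) came largely from the LPS male and was 1.08 without it, and PLCL1 was 1 of the 4 genes called without the filter. Its free RNA was also highest in that library (34.9, 56.4, 35.3 and 132 CPM). SUGCT had 70.8, 70.2, 121 and 122 CPM and differed alike in both sexes. CDH18, a cadherin, had 84.8, 88.6, 117 and 185 CPM and beta-actin, ACTB, 67.6, 59.3, 101 and 110.3 CPM. Free RNA held 75.2, 115, 110 and 158 CPM of SUGCT and 353, 162, 523 and 314 CPM of ACTB, higher after LPS within each sex, and for ACTB above the list B nuclei in every library. CDH18 in free RNA had 172, 84.0, 144 and 303 CPM. The part of free RNA in these values was not tested. KCNK10, TAFA1, GALNT15 and POLE4 had log2 fold changes of 1.24 to 3.49, and GALNT15 and POLE4 had at most 18.2 CPM. GALNT15, at 3.49, was at 2.02 without the LPS male and at 4.88 without the control female, and its free RNA (4.79, 4.80, 6.42 and 34.9 CPM) exceeded its level in list B nuclei (1.36, 0.33, 3.59 and 18.2 CPM) in every library.

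Among the genes with both LPS values below both controls, COL11A1, a fibrillar collagen, stood at 83.2 and 67.3 CPM in controls and at 18.8 and 21.9 CPM after LPS. Its log2 fold change was -1.86 (SE 0.35), with the smallest unadjusted p of the named genes, 0.00253. PPA2, a mitochondrial pyrophosphatase, had 116, 74.6, 36.5 and 30.1 CPM, and PCDH15, a protocadherin, had 129.8, 148, 68.8 and 68.9 CPM. HYDIN had 46.8, 50.6, 18.5 and 25.7 CPM and NTSR1, the neurotensin receptor, 113, 229.7, 71.7 and 73.3 CPM. In these 5 genes the groups did not overlap, which is how they were chosen. Free RNA was lower after LPS within each sex for 4 of them, with 39.7, 58.8, 19.2 and 37.9 CPM of COL11A1, 86.9, 80.4, 43.3 and 39.4 CPM of PPA2, 370.1, 360.1, 243 and 143 CPM of PCDH15 and 46.5, 69.6, 28.9 and 47.6 CPM of HYDIN. PCDH15 in free RNA lay above its level in list B nuclei in every library. NTSR1 had 91.0, 76.8, 92.2 and 46.1 CPM in free RNA. CACNA1H, a T-type calcium channel, had 6.78, 21.0, 2.99 and 2.51 CPM in list B nuclei and 4.79, 16.8, 2.41 and 0.74 CPM in free RNA. Its log2 fold change was -2.22, and -1.32 without the control male. SPNS3 had a log2 fold change of -1.60. The part of free RNA in these values was not tested.

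The other 3 of these 10 were genes known from macrophages, F13A1, DAB2 and IGF1. F13A1 had 4.07, 13.3, 0.30 and 0.63 CPM, DAB2 6.33, 25.6, 3.59 and 3.13 CPM and IGF1 3.17, 7.32, 0.90 and 0.63 CPM. Their log2 fold changes of -4.16, -2.13 and -2.59 became -3.20, -0.94 and -1.98 without the control male. In free RNA F13A1 had 5.47, 18.0, 8.02 and 0 CPM and DAB2 25.3, 42.0, 29.7 and 12.6 CPM. The microglial markers PTPRC (5.43, 4.0, 1.20 and 1.88 CPM) and P2RY12 (7.24, 9.99, 4.78 and 5.01 CPM) were also lower in both LPS libraries, and CSF1R lay at 0.45 to 1.33 CPM. The part of free RNA of macrophages in these values was not tested.

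**Figure D5:**
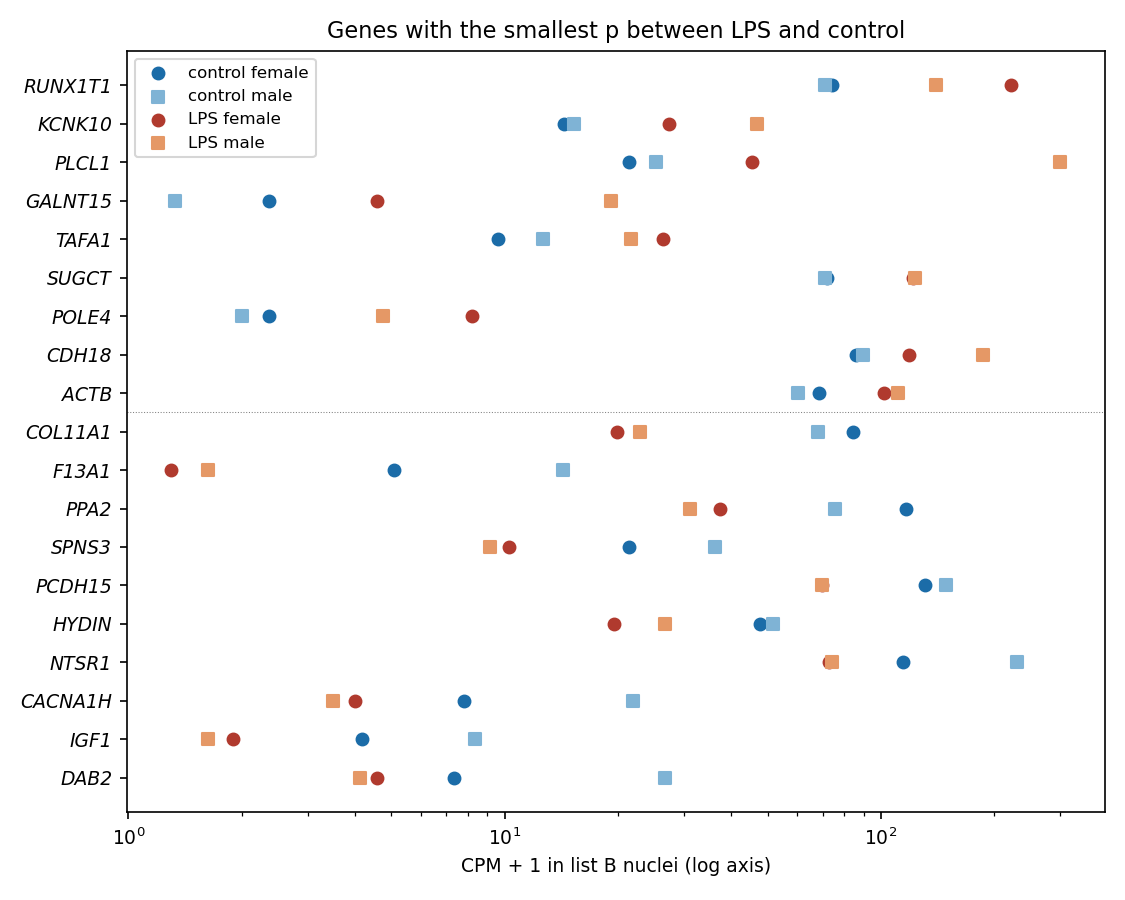
Levels in list B nuclei (CPM + 1, log axis) of the genes of smallest unadjusted p in each direction among those whose LPS and control values do not overlap, 1 point per library. COL11A1 lies at 67.3 and 83.2 CPM in controls and at 18.8 and 21.9 CPM after LPS, and none of the genes shown passed the adjusted threshold.

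No gene of any list passed the threshold. The 24 transcription factors tested had a median log2 fold change of 0.09, the 25 migration genes of 0.11, the 29 adhesion genes of -0.005 and the 10 hedgehog genes of -0.28, beside 0.01 for all genes tested. The same medians in the fits that left out 1 fetus were computed after the data were seen. They changed sign for the transcription factors (-0.45 to 0.54), the migration genes (-0.13 to 0.25) and the adhesion genes (-0.093 to 0.18). For the hedgehog genes they stayed negative (-0.40 to -0.097). In free RNA 1 of the 10 hedgehog genes exceeded the mean of the controls in the LPS female (median log2 difference -0.35) and 4 in the LPS male (-0.18). For all genes tested these medians in free RNA were -0.11 and -0.05. The part of free RNA in the hedgehog values was not tested. The 27 synaptic genes had a median of 0.40, with positive values in 24 of 27, and 4 of them lay above both controls and none below. Of all 11689 genes tested 6068 had positive values, and 7.14% lay above and 8.63% below both controls. Without the LPS male the median of the 27 was 0.07 and 17 were positive, and in fits without another fetus it was 0.30 to 0.83 with 18 to 21 positive. In free RNA of the LPS male 23 of the 27 exceeded the mean of the controls, by a median of 0.55 on the log2 scale, against 10 of 27 in the LPS female (-0.16). The LPS male was also the library with 934 list E nuclei, and it had 291 CPM of the list E gene GABRB2 in free RNA against 49.2 to 71.8 CPM in the others. The part of this library and of free RNA in the synaptic values was not tested. The 4 genes included GRIN2A, GRIN2B and KCNA1. The log2 fold change of GRIN2B was 0.40 (SE 0.32), from 438, 320.3, 485 and 502 CPM, and it was 0.12 without the control male and 0.74 without the control female. GRIN2A was the only one with an unadjusted p under 0.05 and had 2.04, 3.0, 3.89 and 23.8 CPM, highest in the LPS male, with 13.7, 15.6, 9.62 and 72.1 CPM in free RNA. Of the adhesion genes, 3 lay above both controls, TENM1 (290.4, 215, 295 and 373 CPM), JAM3 (235.6 to 241 CPM) and EFNB2 (4.52 to 8.37 CPM). NRP1, a semaphorin receptor, lay below both, with 51.6, 53.9, 31.7 and 9.40 CPM, a log2 fold change of -1.27 that was -0.66 without the LPS male and -2.50 without the LPS female.

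Of the 23 inflammatory and stress genes tested, 2 lay above both controls, JAK1 (90.7, 94.2, 101 and 100.2 CPM) and IFNGR1 (41.6, 49.9, 53.5 and 54.5 CPM). Another 2 lay below both, among them IL17RA (33.5, 30.3, 28.1 and 13.8 CPM). Both counts were near the 7.14 and 8.63% of all genes. The median log2 fold change of the 23 was 0.008, and -0.11 to 0.10 when 1 fetus was left out. Of the list B genes, EBF3 had a log2 fold change of -0.60 (SE 0.43), FSTL4 of -0.25 (SE 0.40), HUNK of -0.23 (SE 0.26), RASGEF1B of -0.02 (SE 0.56) and ARSF of 0.31 (SE 0.33), given without a test. When 1 fetus was left out these ran from -1.02 to -0.02 for EBF3, from -0.60 to 0.025 for FSTL4, from -0.53 to 0.75 for RASGEF1B and from -0.051 to 0.58 for ARSF, and for HUNK from -0.32 to -0.16. TTR had 9.27, 0.33, 325 and 0.63 CPM, and the LPS female also had the most TTR in free RNA.

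Whether LPS differences in list B nuclei departed from those in list A and C nuclei of the same fetuses was tested as a difference of differences over 11250 genes. None (0%) passed in edgeR or in DESeq2, and 17 of 19929 (0.0853%) passed in edgeR without the filter on low counts, with 298 genes in edgeR and 76 in DESeq2 at an unadjusted p under 0.05. The smallest p was that of TMTC1, a transmembrane mannosyltransferase, which had 17.2, 32, 9.6 and 16.3 CPM in list B nuclei and 5.0, 12.1, 24.5 and 25.2 CPM in list A and C nuclei, a difference of -2.40 on the log2 scale (SE 0.41, edgeR adjusted p of 1.00). COL11A1 was at 27.9, 43.1, 41.7 and 29.3 CPM in list A and C nuclei, with a difference of -2.01 (SE 0.45, edgeR adjusted p of 1.00). List B nuclei thus had more COL11A1 than A and C nuclei in both controls and less in both LPS libraries. The difference for COL11A1 was -1.33 without the control female and -2.84 without the control male, and that for TMTC1 was -1.74 without the LPS female. CTTNBP2, a regulator of cortactin (-0.96), MGMT (-1.26) and OPCML (-1.90) followed, and GABRA2 (0.59), VMP1 (0.64), TMEM38A (0.83), SPP1 (2.31) and a gene known only by an identifier led in the other direction. The difference for OPCML was -2.61 without the control female and -1.19 without the control male, and SPP1 was at 3.34 without the LPS female.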

How the data were processed

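The authors isolated nuclei from frozen cerebellum, made 10x libraries and mapped the reads to Mmul_8.0.1 with introns included. The paper's methods name another Cell Ranger version than the submitters' notes (Cell Ranger 4). The deposited matrices hold UMI counts per gene and barcode for every barcode of the 10x list, unfiltered and not normalized, so the later SoupX and filtering steps are not in them. The gene list has 30807 rows, of which 9483 have no symbol; 883 of these were named from NCBI gene names. No genome of this build was used, and no coordinates or sequences are given.

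Members and gene lists were chosen with earlier results of these data known. Barcodes were classed by the rule in Python 3.11.15. UMIs of a class were summed per fetus and compared as CPM with a pseudocount of 1, or tested with edgeR 4.0.16 (filterByExpr, TMM, quasi-likelihood test, Benjamini-Hochberg) in R 4.3.3, with DESeq2 1.42.0 as the other tool. The 34 genes of the rule were left out of the counts of genes tested and called. Those that passed the filter stayed in the fits and in the Benjamini-Hochberg adjustment. The difference between types used the fetus as a block. Fetuses were grouped by their deposited labels. Scripts were tested on simulated data, where the LPS test called 10 unchanged genes and the test between types 25. The LPS test recovered 0, 30.8 and 91.0% of genes changed by 1, 2 and 4 on the log2 scale. The test between types recovered 37.5, 76.3 and 100% of them. Scrublet's automatic threshold marked under 0.5% in the males, where the median of the other libraries' thresholds was used. Genes named were the 20 highest and 10 lowest by the least extreme library ratio, the 10 of smallest p in each direction without overlap (5 for the type difference), and members of fixed lists. Depth was 34282015 to 61665690 UMIs per library, and low counts limit precision. Each library is a separate fetus, and 2 fetuses per group limit every test. A few results of the rule for named genes are not reported here.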

Additional observations from a re-analysis of the deposited data

Results flagged for a closer look

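Within list B nuclei, RASGEF1B and EBF3 moved in opposite directions in the females and the males. The log2 difference between the LPS and the control fetus was -0.18 in females and 0.22 in males for RASGEF1B, a gap of -0.40, and 0.12 in females and -1.24 in males for EBF3, a gap of 1.35. With 1 fetus per sex and group the gaps were not tested. In free RNA of the control female, control male, LPS female and LPS male, EBF3 had 105, 295, 95.4 and 56.5 CPM. RASGEF1B had 512, 412, 395 and 379 CPM there. The part of free RNA in the gaps was not tested. TTR reached 2830 CPM in barcodes of at most 100 UMIs in the LPS female, above the 134 and 0 CPM of the controls and the 5.94 CPM of the LPS male.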

How the results depend on the processing

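The share of list B nuclei kept its direction and stayed short of the threshold under 16 of 17 alternatives. The log2 fold change ran from -1.11 to 0.023 when 1 fetus was left out, and it reversed to 0.023 without the LPS male. For LPS against control in list B nuclei, 4 genes were called without the filter on low counts (PLCL1, TTR and 2 known only by an identifier), 1 with the sex of the fetus as a block (TTR), and 0 to 1 when 1 fetus was left out (PLCL1 without the LPS female, TTR without the LPS male). In fits that leave out 1 fetus the lone library of its group is assumed to vary like the other group, which alone gives the spread. TTR ran from -2.97 to 8.91 when 1 fetus was left out, and reversed to -2.97 without the LPS female. For the difference between types, 17 genes were called without the filter, among them COL11A1, TMTC1, MGMT and OPCML, all lower, and 0 to 15 when 1 fetus was left out, with 2 called higher without the LPS female (GRIK1 and CDH4) and 15 called lower without the LPS male, TMTC1, PCDH15 and again GRIK1 among them, so that GRIK1 changed direction. The cause of these changes was not tested. Of 60 alternative ratios for the named genes 59 moved by less than the SD between libraries, and the mean log2 ratio of CORO2A was 3.24 after thinning. Leaving out members with a UMI of an outside marker kept 33, 352, 14 and 65 nuclei. The labels give no replicate numbers. The sexes match 1 control with 1 LPS fetus, and paired in this way list B nuclei gave a log2 fold change of -0.54 for their share. Depth limits statements on genes under 20 CPM.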
